A study of Mus musculus with 6 samples.

Results

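The 10 genes described here encode the chemoattractant receptors of phagocytes: the formyl peptide receptors Fpr1 and Fpr2, the complement receptors C5ar1 and C3ar1, the chemokine receptors Cxcr1, Cxcr2, Cxcr4 and Ccr1, and the lipid mediator receptors Ltb4r1 and Ptafr. They were taken by name from the 56748 genes of the deposited count table, and all 10 were found. Of these, 9 passed a filter on low counts and were tested among 15963 genes, each of the 9 being above the filter's level in every wild-type library as well. The remaining member, Cxcr1, was too low to test. RNA came from mouse bone marrow cells of MLL-AF9 leukemia, an acute myeloid leukemia driven by a fusion of MLL with AF9. The 3 libraries with genotype label Rbm5 KO (numbers 31, 32 and 40) were compared with the 3 labelled Rbm5 WT (numbers 25, 27 and 29). All 6 carry MLL-AF9, and no age, strain, treatment or way of deleting Rbm5 is given in the labels. The labels name the material both whole bone marrow and cultured cells, and call the samples independent replicates.

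Chemoattractant receptors are membrane proteins with 7 transmembrane helices that couple mainly to the inhibitory G protein class, and they steer neutrophils, monocytes and macrophages toward infection or damage. The formyl peptide receptors read N-formylated bacterial and mitochondrial peptides, the complement receptors read the fragments C5a and C3a, and the lipid receptors read leukotriene B4 and platelet-activating factor. In the marrow, CXCR4 and its ligand CXCL12 hold immature and mature granulocytes in place, while CXCR2 promotes release of neutrophils into blood. In the granulocyte lineage most of these receptors are acquired late in maturation, and CXCR4 is instead high on progenitors and leukemic blasts.

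Facts of the whole series bear on every value below. Totals were 26359299 to 31807588 counts per library. The targeted gene Rbm5 was not lower under the knockout label. It had 173.6 to 227.5 CPM (counts per 1e6 counts, scaled by TMM) in wild type against 245.3 to 269.0 CPM in knockout. The difference did not pass (edgeR log2 fold change 0.34, adjusted p = 0.107). Counts are per gene, so a loss of part of Rbm5 was not examined. The words knockout and wild type therefore stand for labels only, and each direction rests on them. The Y-linked gene Ddx3y had 0 counts in each wild-type library and 2645 to 3311 in each knockout library, so sex and the knockout label cannot be told apart. Xist averaged 1419 ± 185 CPM in wild type, and it was at 192.2 CPM in knockout library 32 against 13.02 and 32.5 CPM in libraries 31 and 40. Library 32 was the lowest knockout library for 8 of the 9 tested receptors. How often it was lowest over all genes was not counted, and a link to Xist was not tested. Without library 32, 6 receptors were called higher, with Cxcr2 in place of Cxcr4. The 16 neutrophil markers summed to 1014 to 2762 CPM in wild type against 10356 to 18220 CPM in knockout. By group mean Ngp was the largest part of that sum (495.3 and 3787 CPM), while Ly6g was at 2.25 and 28.2 CPM. The 16 monocyte and macrophage markers summed to 1404 to 2361 and 4430 to 6422 CPM. Lyz2 was the largest part of this sum in each library, with means of 653.9 and 2725 CPM, and 3 of these 16 markers passed the test. Of 9 markers of immature myeloid and MLL leukemia cells, Hoxa9, on chromosome 6, fell (253.0 ± 93.5 against 110.3 ± 15.2 CPM, SD, n = 3 each) and passed in 2 of the 6 fits that left out a library. The other 8 did not pass, with log2 fold changes from -1.31 (Hoxa10) to 1.08 (Mpo) and -0.03 for Meis1. In such bulk libraries fewer cells of a type and less RNA per cell cannot be told apart.

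The promoters of 5 members are printed here, from RefSeq on build GRCm38.p6. They set 4 of the 6 receptor genes called higher in knockout beside Ccr1, which did not pass the test. Those of Ptafr and Cxcr4, also called higher, are not printed. Each runs 5′ to 3′ on the gene's strand from 250 bases before the transcription start to 50 after it. Capitals mark matches on either strand to 3 motifs of myeloid transcription factors: TTNNGNAA for C/EBP, GAGGAAG for PU.1 and TGTGGT for RUNX. The Fpr1 window lies at chr17:17883890-17884189 (minus strand), Fpr2 at chr17:17887574-17887873 (plus), C5ar1 at chr7:16259289-16259588 (minus), Ltb4r1 at chr14:55765712-55766011 (plus) and Ccr1 at chr9:123968643-123968942 (minus).
Fpr1: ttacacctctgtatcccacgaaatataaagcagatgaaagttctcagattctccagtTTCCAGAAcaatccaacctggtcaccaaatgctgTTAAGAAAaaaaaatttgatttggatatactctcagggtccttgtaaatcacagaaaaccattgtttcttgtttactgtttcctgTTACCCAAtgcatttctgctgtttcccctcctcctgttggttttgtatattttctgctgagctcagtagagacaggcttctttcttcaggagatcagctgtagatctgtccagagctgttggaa
Fpr2: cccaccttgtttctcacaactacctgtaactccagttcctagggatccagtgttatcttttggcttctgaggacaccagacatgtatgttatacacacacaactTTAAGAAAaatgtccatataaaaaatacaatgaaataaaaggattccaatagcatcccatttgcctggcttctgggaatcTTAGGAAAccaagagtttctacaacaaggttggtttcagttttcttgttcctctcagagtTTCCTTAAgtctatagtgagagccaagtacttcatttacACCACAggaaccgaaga
C5ar1: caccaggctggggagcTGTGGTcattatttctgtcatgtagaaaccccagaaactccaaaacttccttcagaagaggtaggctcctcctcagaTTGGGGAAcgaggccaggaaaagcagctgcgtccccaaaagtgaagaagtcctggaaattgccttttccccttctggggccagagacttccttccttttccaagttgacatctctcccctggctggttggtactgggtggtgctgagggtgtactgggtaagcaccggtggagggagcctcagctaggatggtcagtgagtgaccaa
Ltb4r1: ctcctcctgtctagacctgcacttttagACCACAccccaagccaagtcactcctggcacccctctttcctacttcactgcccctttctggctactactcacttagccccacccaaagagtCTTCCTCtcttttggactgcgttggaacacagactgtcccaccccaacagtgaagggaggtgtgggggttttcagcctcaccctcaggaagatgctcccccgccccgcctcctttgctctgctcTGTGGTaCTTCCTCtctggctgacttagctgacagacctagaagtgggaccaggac
Ccr1: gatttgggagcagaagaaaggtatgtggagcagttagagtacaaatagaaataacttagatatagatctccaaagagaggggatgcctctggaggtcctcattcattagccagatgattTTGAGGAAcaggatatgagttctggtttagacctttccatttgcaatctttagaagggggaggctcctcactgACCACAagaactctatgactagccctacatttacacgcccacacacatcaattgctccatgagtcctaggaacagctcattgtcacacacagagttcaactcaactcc

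Fpr1 and Fpr2 are neighbors that are read away from each other, with starts 3885 bases apart, and each window held 3 matches to the C/EBP letters. The C/EBP letters were found in 5 of the 10 member promoters (Fpr1, Fpr2, Cxcr4, C5ar1 and Ccr1), and in 40.7% of all 32851 promoter windows of the same length. The RUNX letters were found in 5 (Fpr2, Cxcr1, C5ar1, Ltb4r1 and Ccr1), against 16.8% of all windows. The PU.1 letters were found only in Ltb4r1 among the 10, in 2 places on the opposite strand, against 13.6% of all windows. On the gene's own strand alone, RUNX letters were in 3 of the 10 against 8.99% of all windows. C/EBP letters were then in 4 against 25.4%, and PU.1 letters in 0 against 7.54%. No enrichment was tested, and a match describes letters and not a bound site. Ccr1 carried both C/EBP and RUNX letters, as did Fpr2 and C5ar1. The windows of Ptafr, which was called higher, and of Cxcr2 and C3ar1 held no match to any of the motifs.

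Of the 9 tested receptor genes 6 were higher in the libraries labelled knockout (edgeR quasi-likelihood test, Benjamini-Hochberg adjusted p under 0.05 over all genes): Fpr1, Fpr2, C5ar1, Ltb4r1, Ptafr and Cxcr4. In edgeR 0 were lower, at an unadjusted p as well, since all 9 log2 fold changes were positive, and DESeq2 also called 0 lower. Cxcr2, C3ar1 and Ccr1 did not pass. Of all genes tested, 5.45% were called higher and 3.12% lower, 8.57% in either direction. With scaling by total counts alone, 46.7% of all called genes were higher, against 63.6% here, and the same number of receptors, 6, passed. The median log2 fold change of the 9 was 1.66, beside -0.01 over all genes tested, of which 48.8% were positive. The 3 knockout libraries lay above the 3 wild-type libraries for 7 of the 9 genes, the exceptions being C3ar1 and Ccr1. Over all 15963 genes tested the same held for 2742, and groups did not overlap in either direction for 33.7%. The members were chosen with earlier results of these data known, so these counts describe the group and do not test it.

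**Figure D1:**
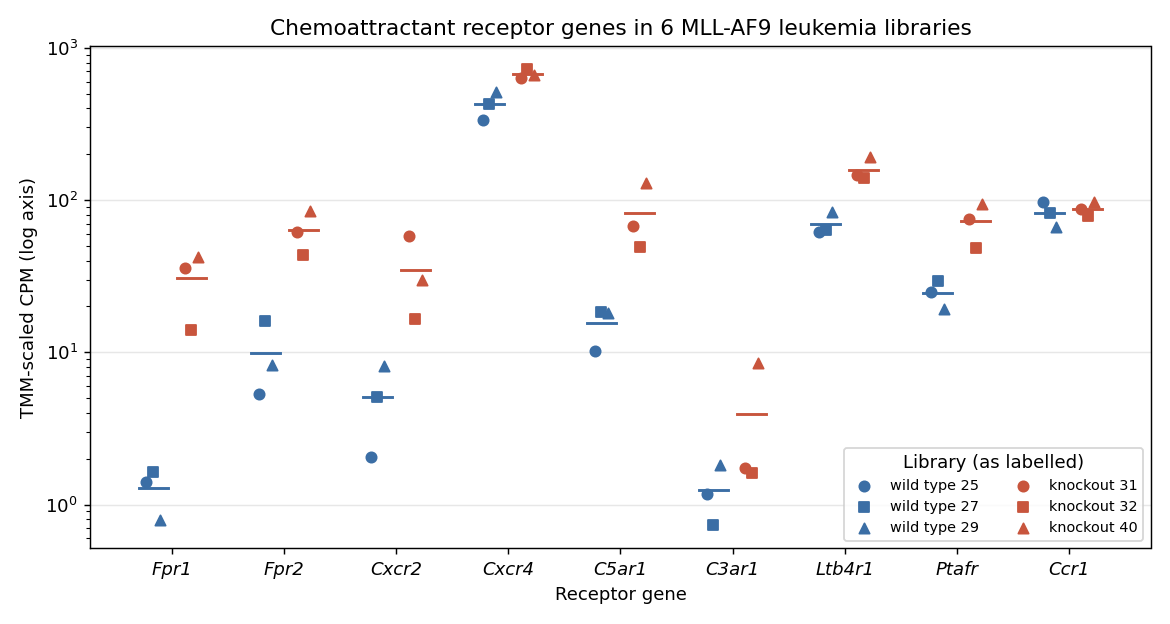
TMM-scaled CPM on a log axis for the 9 tested receptor genes, with 1 point per library (blue wild type, red knockout, marker shape by library) and a line at each group mean. Red and blue points separate for every gene shown other than C3ar1 and Ccr1, and Cxcr4 has the highest CPM in both groups.

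Fpr1 had the largest difference of the family. The gene (ENSMUSG00000045551, chromosome 17, 18096733 to 18104202, minus strand, in the coordinates of the deposited table, for which no build is named) encodes the high-affinity receptor for formylated peptides. It was at 1.41, 1.63 and 0.793 CPM in wild-type libraries 25, 27 and 29, while knockout libraries 31, 32 and 40 had 36.0, 14.1 and 42.3 CPM. The lowest knockout library was far above the highest wild-type library. The means were 1.28 ± 0.435 and 30.8 ± 14.8 CPM (SD, n = 3 each), a 24.05-fold difference (95% confidence interval 10.6 to 54.6, edgeR adjusted p = 0.00608). Its test passed whichever single library was left out, and reached 0.108 against wild-type library 25 alone.

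Fpr2, the more promiscuous relative of Fpr1 that also reads lipid and amyloid ligands, also rose, from a higher starting level. The gene (ENSMUSG00000052270, chromosome 17, 18108086 to 18114214, plus strand) was at 5.35, 15.9 and 8.21 CPM in wild-type libraries 25, 27 and 29. Values in knockout libraries 31, 32 and 40 were 62.0, 43.8 and 84.9 CPM. The groups did not overlap, and the means of 9.84 ± 5.48 and 63.6 ± 20.6 CPM differed 6.48-fold (interval 3.03 to 13.9, edgeR adjusted p = 0.0240). Without wild-type library 29 or knockout library 31 or 40 the adjusted p was 0.0756, 0.0689 or 0.0701, and without a low-count filter 0.0811. The Fpr2 count carries an uncertainty of its own, since 43.0% of the 31-base words in its annotated transcripts also occur in another gene (GENCODE M21), most of them in Gm5966. Gm5966 had 0 counts in all libraries, and Fpr3, which overlaps Fpr2 on the same strand, had 2 counts in knockout library 31 and 0 elsewhere. For Fpr1 the share of such words was 1.55%.

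C5ar1, the receptor for the complement fragment C5a, also rose. The gene (ENSMUSG00000049130, chromosome 7, 15980668 to 15993465, minus strand) was at 10.2, 18.4 and 18.2 CPM in wild-type libraries 25, 27 and 29, while knockout libraries 31, 32 and 40 had 67.7, 49.4 and 130.1 CPM. Knockout library 40 was highest, and the groups did not overlap. The means were 15.6 ± 4.65 and 82.4 ± 42.3 CPM, a 5.28-fold difference (interval 2.58 to 10.8, edgeR adjusted p = 0.0281). That p became 0.0757, 0.0745 or 0.0718 without wild-type library 25, 27 or 29, to 0.0686 without knockout library 31, to 0.195 without libraries 27 and 29 together, and to 0.0909 without a low-count filter.

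C3ar1, the receptor for C3a, was low and did not pass. The gene (ENSMUSG00000040552, chromosome 6, 122824097 to 122833120, minus strand) was at 1.18, 0.729 and 1.81 CPM in wild-type libraries 25, 27 and 29. Knockout libraries 31, 32 and 40 had 1.75, 1.61 and 8.46 CPM. Only knockout library 40 lay above the wild-type range, and the other 2 fell inside it. The log2 fold change was 1.66 ± 0.72 SE (edgeR adjusted p = 0.188), and 0.44 without library 40. Genes of chromosome 6 as a whole (390 with a mean log2 CPM above 4) stood apart in wild-type libraries 27 and 29, by a median log2 CPM 0.36 above the remaining libraries, and the part of this in the C3ar1 value was not tested.

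Both lipid mediator receptors rose. Ltb4r1 (ENSMUSG00000046908, chromosome 14, 56003419 to 56005951, plus strand), the high-affinity leukotriene B4 receptor that amplifies neutrophil swarming, was at 61.7, 63.8 and 83.4 CPM in wild-type libraries 25, 27 and 29. Knockout libraries 31, 32 and 40 had 145.8, 139.6 and 190.4 CPM. The groups were well apart, with means of 69.6 ± 11.9 and 158.6 ± 27.7 CPM (2.28-fold, interval 1.76 to 2.95, edgeR adjusted p = 0.00825). Ltb4r1 passed under each of 17 other settings tried, with a highest adjusted p of 0.0291. None of its transcripts' 31-base words occurs in another gene. Its low-affinity neighbor Ltb4r2 was at 1.93 ± 0.529 and 3.14 ± 0.628 CPM and did not pass (edgeR adjusted p = 0.231).

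Ptafr (ENSMUSG00000056529, chromosome 4, 132291378 to 132309994, plus strand) binds platelet-activating factor, a phospholipid mediator. It was at 24.9, 29.3 and 19.2 CPM in wild-type libraries 25, 27 and 29, while knockout libraries 31, 32 and 40 had 74.8, 48.4 and 94.5 CPM. Every knockout library was above every wild-type library, as for Ltb4r1. The means were 24.5 ± 5.06 and 72.6 ± 23.1 CPM, a 2.96-fold difference (interval 1.93 to 4.56, edgeR adjusted p = 0.0199). The adjusted p was 0.0633 or 0.0515 without wild-type library 25 or 29, 0.0599 without knockout library 31, and 0.155 with library 25 as the sole wild type.

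Of the 3 chemokine receptors tested, Cxcr4 alone passed. Cxcr2 (ENSMUSG00000026180, chromosome 1, 74193148 to 74200405, plus strand), which reads CXCL1, CXCL2 and related chemokines, was at 2.06, 5.10 and 8.12 CPM in wild-type libraries 25, 27 and 29. Knockout libraries 31, 32 and 40 had 58.4, 16.6 and 29.9 CPM. The groups did not overlap, but the knockout libraries spread widely, with library 31 highest. The log2 fold change was 2.78 ± 0.66 SE and the edgeR adjusted p 0.0565, so it did not pass. Cxcr2 did pass by DESeq2 (adjusted p = 0.00137), by limma-voom (0.0451) and by edgeR without robust shrinkage (0.0307). In edgeR it passed in 1 of the 6 fits that left out a library, with an adjusted p of up to 0.152. Without a low-count filter the edgeR value was 0.171. Of the 31-base words in its transcripts, 12.1% also occur in another gene. Cxcr1 (ENSMUSG00000048480, chromosome 1, 74230944 to 74233790, minus strand), another receptor for such chemokines, had 7 counts in knockout library 31 and 0 in each of the other 5. A count of 0 allows up to 0.0882 to 0.123 CPM in a library, for counting error only.

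Cxcr4 (ENSMUSG00000045382, chromosome 1, 128515936 to 128520030, minus strand), the marrow retention receptor, was by far the most abundant member in both groups. It was at 336.7, 424.6 and 513.3 CPM in wild-type libraries 25, 27 and 29, while knockout libraries 31, 32 and 40 had 632.9, 728.5 and 666.5 CPM. The groups did not overlap, and wild-type library 29 came nearest to the knockout range. The difference was the smallest of the called members, 1.59-fold (interval 1.24 to 2.03, edgeR adjusted p = 0.0375), with means of 424.9 ± 88.3 and 676.0 ± 48.5 CPM. The call did not hold when any single library other than wild-type library 29 was left out, with adjusted p of 0.0732 to 0.112. Its direction was the same under each setting tried.

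Ccr1 (ENSMUSG00000025804, chromosome 9, 123762161 to 123768729, minus strand), a receptor for CCL3, CCL5 and related chemokines on monocytes and neutrophils, showed no detectable difference. It was at 97.4, 82.8 and 66.2 CPM in wild-type libraries 25, 27 and 29, while knockout libraries 31, 32 and 40 had 87.3, 79.1 and 96.6 CPM. The ranges overlapped almost fully, and the highest of all 6 values was in a wild-type library. The means were 82.1 ± 15.6 and 87.7 ± 8.75 CPM, a 1.07-fold difference (interval 0.842 to 1.35, edgeR adjusted p = 0.731). The interval leaves room for a modest change either way but lies below the fold changes estimated for Fpr1, Fpr2, C5ar1, Ltb4r1 and Ptafr. The sign of the Ccr1 value was negative when libraries were scaled by total counts alone (the median over all genes was then -0.13), and without wild-type library 29.

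**Figure D2:**
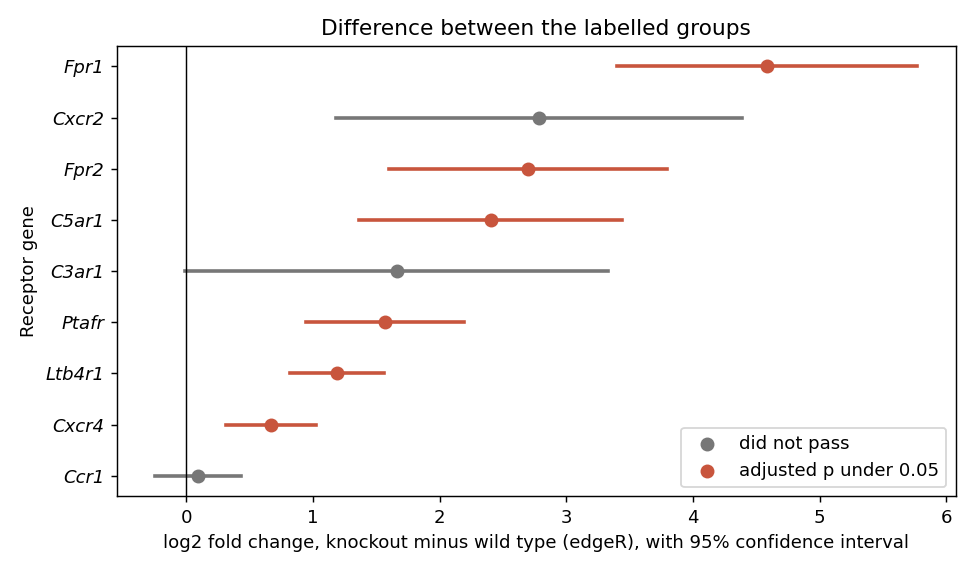
The edgeR log2 fold change (knockout minus wild type) of each tested receptor gene on the horizontal axis, with its 95% confidence interval as a bar. Red genes passed an adjusted p of 0.05 and grey genes did not; Fpr1 lies farthest right at 4.59 and Ccr1 nearest 0 at 0.09.

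Levels can be set side by side only per length, as CPM per kilobase of the table's gene length. In wild type the order ran from Cxcr4 (235.0 ± 48.8) through Ltb4r1 (49.9 ± 8.57) and Ccr1 (28.99 ± 5.51) to Fpr2 (7.59 ± 4.23), Ptafr (6.73 ± 1.39) and C5ar1 (6.07 ± 1.81). Cxcr2 (1.67 ± 0.994), Fpr1 (0.966 ± 0.329) and C3ar1 (0.288 ± 0.126) followed, and Cxcr1 was at 0. The ranges over libraries of Fpr2, Ptafr and C5ar1 overlapped from neighbor to neighbor, as did those of Cxcr2 and Fpr1. In knockout the order was Cxcr4 (373.9 ± 26.8), Ltb4r1 (113.8 ± 19.9), Fpr2 (49.0 ± 15.9), C5ar1 (32.1 ± 16.5), Ccr1 (30.9 ± 3.09), Fpr1 (23.3 ± 11.2), Ptafr (20.0 ± 6.36), Cxcr2 (11.5 ± 7.002) and C3ar1 (0.915 ± 0.910). From Fpr2 to Cxcr2 each neighbor's range overlapped the next. The range of Ccr1 lay above those of Fpr2 and Fpr1 in wild type, and overlapped both in knockout.

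Ratios of members within a library, which need no scaling between libraries, were compared for 3 pairs by exact two-sided permutation tests, for which the smallest possible p is 0.1. Per kilobase, Cxcr4 exceeded Cxcr2 by 273.8-, 139.7- and 106.4-fold in wild-type libraries 25, 27 and 29, and by 18.3-, 73.8- and 37.6-fold in knockout libraries 31, 32 and 40. The log2 ratio of Cxcr2 to Cxcr4 averaged -7.32 ± 0.70 in wild type and -5.21 ± 1.01 in knockout (SD, n = 3 each, exact permutation p = 0.1, adjusted over the 3 ratios 0.15). Every knockout library had a higher Cxcr2 to Cxcr4 ratio than every wild-type library.

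Fpr2 exceeded Fpr1 by 3.84-, 9.88- and 10.4-fold in wild-type libraries 25, 27 and 29 and by 1.76-, 3.18- and 2.05-fold in knockout libraries 31, 32 and 40. The log2 ratio of Fpr1 to Fpr2 averaged -2.88 ± 0.81 and -1.17 ± 0.44, again with no overlap (exact permutation p = 0.1, adjusted 0.15, n = 3 each). C5ar1 exceeded C3ar1 by 14.4-, 41.3- and 16.7-fold in wild type and by 64.2-, 51.0- and 25.7-fold in knockout, in the same order of libraries. Here the groups overlapped (exact permutation p = 0.2, adjusted 0.2, n = 3 each). With 3 libraries a group none of these tests could reach 0.05.

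The receptors were also set in proportion to the neutrophil markers. The mean log2 CPM of the 16 markers was 5.56 ± 0.63 in wild type and 8.41 ± 0.48 in knockout, a difference of 2.85. Set against that mean in the same library, Fpr2 stood at -2.40 ± 0.68 in wild type and -2.47 ± 0.04 in knockout, and Cxcr2 at -3.40 ± 0.35 and -3.47 ± 0.83, so the group means of both differed by -0.07 in this measure. Fpr1 was higher relative to the markers in knockout, by 1.58, and each knockout library exceeded each wild-type library. C5ar1 was 0.52 lower on this scale, with group values that overlapped. Ptafr, C3ar1, Ltb4r1, Cxcr4 and Ccr1 were lower by this measure, at -1.32, -1.58, -1.66, -2.16 and -2.74. Of these, only C3ar1 had groups that overlapped. These values describe proportions, and the part of the neutrophil markers in the receptor differences was not tested.

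**Figure D3:**
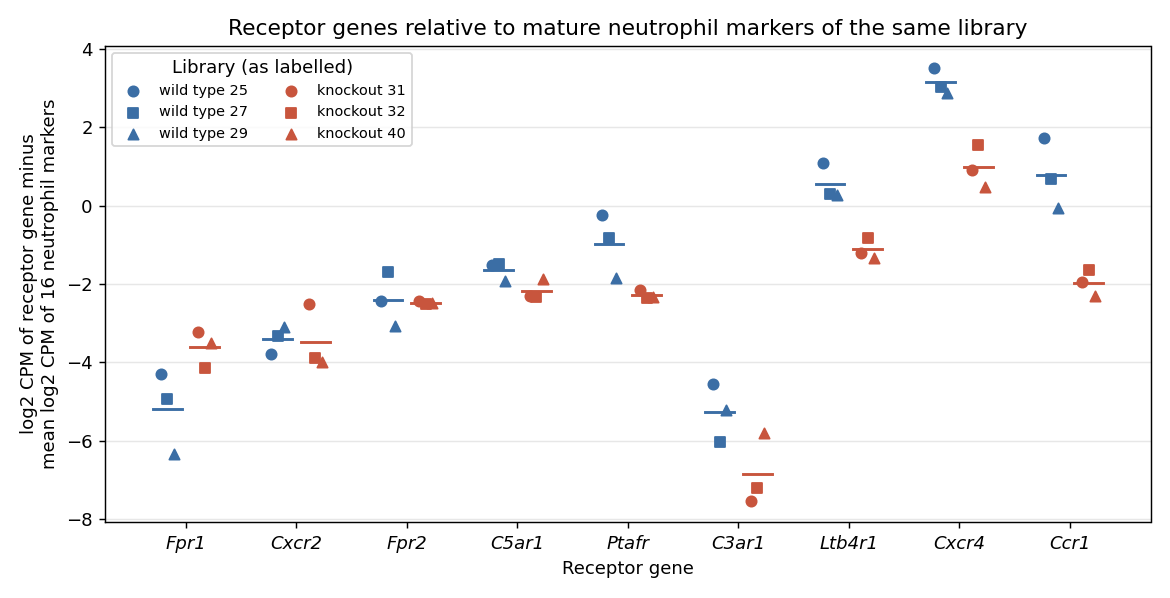
Log2 CPM of each receptor gene minus the mean log2 CPM of 16 neutrophil markers in the same library. There is 1 point per library, with lines at the group means. Fpr1 is higher in knockout, and Fpr2 and Cxcr2 have nearly the same group means. Ptafr, Ltb4r1, Cxcr4 and Ccr1 are lower in every knockout library than in any wild-type library.

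Other markers bear on which cells the libraries could hold. All 16 neutrophil markers had knockout libraries above wild-type libraries, and 13 rose, among them Cd177, Mmp9, Stfa2l1 and Padi4, by 1.73, 2.76, 4.43 and 1.05 on the log2 scale (edgeR adjusted p from 0.00274 to 0.00879). All 16 were above the filter's level in every wild-type library. Over all 15963 genes tested, 5.45% were called higher, and for 2742 every knockout library lay above every wild-type library. These values are the background for the marker counts here and in the next paragraph. Of the 16 monocyte and macrophage markers, 13 of them above that level in every wild-type library, 3 rose (Csf1r, Lyz2 and Ms4a7, by 1.09, 2.06 and 2.68) and 13 did not pass. With 1 library left out, Csf1r passed in 3, Lyz2 in 2 and Ms4a7 in 0 of 6 fits, and Ms4a7 was under the filter's level in each wild-type library, so it was tested only through the knockout group.

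Other lineages were sparse or uneven. Eosinophil markers summed to 52.1 to 133.7 CPM in wild type and 99.1 to 162.0 CPM in knockout, and of the 3 tested Prg2 rose. Mast cell and basophil markers summed to 26.04 to 44.7 and 23.1 to 28.4 CPM, with Mcpt8, Cpa3 and Ms4a2 found in every library, Fcer1a and Tpsb2 at 0 counts throughout, and 0 of 3 passing. B cell markers summed to 10.1 to 29.4 and 9.75 to 30.2 CPM, and 0 of 2 passed. T and NK cell markers summed to 29.03 to 64.3 and 19.3 to 59.5 CPM, most of it Nkg7. Below that sum, Cd3d, Cd8a, Cd3g and Cd4 were each at most 1.68 CPM and higher in every knockout library than in any wild-type library. The groups overlapped for Cd3e, Trac, Nkg7, Klrb1c and Ncr1. Cd3g and Cd4 were too low to test, and 0 of the 5 tested passed. Of these 5, 1 was above the filter's level in every wild-type library. Of 4 erythroid markers tested Hbb-bs rose, and of 3 platelet markers Gp9 rose, but they passed in only 2 and 1 of the 6 fits that left out a library. Hbb-bs was under the filter's level in each wild-type library. Of 4 stromal and endothelial markers 0 passed. The part of these markers in the receptor differences was not tested.

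Among 32 other chemoattractant receptor genes, 14 were tested, 9 of them above the filter's level in every wild-type library, and 1 rose, a share near the 5.45% of all tested genes called higher. This was Gpr84, a receptor for medium-chain fatty acids on myeloid cells, at 2.00, 2.88 and 5.45 CPM in wild-type libraries 25, 27 and 29, while knockout libraries 31, 32 and 40 had 9.11, 15.3 and 19.2 CPM (edgeR log2 fold change 2.07 ± 0.43 SE, adjusted p = 0.0293). The other 13 did not pass. The formyl peptide receptor genes Fpr-rs3, Fpr-rs4, Fpr-rs6 and Fpr-rs7 had 0 counts in every library, as did Ackr1. The list's median over the tested genes was 1.18. Gpr84 passed in 2 of the 6 fits that left out a library, with an adjusted p of up to 0.101.

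Genes for 3 proteins that make leukotriene B4, the ligand of Ltb4r1, also rose. Of 27 genes for ligands and lipid-mediator enzymes 21 were tested, 4 rose, 0 fell and 17 did not pass, with a median of 0.78. The 5.45% called higher over all tested genes is the background for this count and for those of the effector and shut-off lists that follow, and nothing particular to a list is read from them. The 4 were Alox5ap, Alox5 and Lta4h, which act in sequence from arachidonic acid to leukotriene B4, and C3, the precursor of C3a. Alox5ap averaged 172.4 ± 6.38 CPM in wild type against 278.1 ± 41.6 in knockout (edgeR log2 fold change 0.69 ± 0.12 SE, adjusted p = 0.0170), and Alox5 averaged 100.2 ± 22.5 and 187.9 ± 16.9 CPM (0.91 ± 0.16, 0.0192). Lta4h went from 576.2 ± 68.4 to 953.5 ± 158 CPM (0.73 ± 0.15, 0.0250). C3 went from 355.6 ± 130 to 1160 ± 231 CPM (1.71 ± 0.31, 0.0249). Alox5 lies on chromosome 6, whose genes stood higher in wild-type libraries 27 and 29, and was itself higher in knockout. With 1 library left out, Alox5ap passed in 6 of 6 fits, Alox5 in 4, and Lta4h and C3 in 3 each.

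Downstream of the receptors, 13 of 30 genes for G proteins and effectors rose, 0 fell and 17 did not pass (median 0.42). The tyrosine kinase gene Fgr, which carries receptor signals to adhesion and the oxidative burst, went from 36.9 ± 6.40 to 147.3 ± 37.9 CPM (edgeR log2 change 2.00 ± 0.21 SE, adjusted p = 0.00456) and passed whichever library was left out. Gnai2, the main inhibitory alpha subunit in leukocytes, rose by 0.44 ± 0.10, and Gna15, a leukocyte alpha subunit of the Gq class, by 0.96 ± 0.20 (adjusted p = 0.0340 and 0.0308). Neither Gnai2 nor Gna15 held in more than 1 of the 6 fits that left out a library. Gng12 had the lowest value of this list, -0.75, and did not pass.

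Of 15 kinases, arrestins and RGS proteins that switch receptors off, 6 rose, 0 fell and 9 did not pass (median 0.60). Arrb2, the arrestin that uncouples and internalizes chemoattractant receptors, went from 163.2 ± 10.8 to 314.0 ± 54.9 CPM (edgeR log2 fold change 0.94 ± 0.13, adjusted p = 0.00917) and passed in all 6 fits that left out a library. The receptor kinase Grk3 was at 61.0, 50.2 and 27.6 CPM in wild-type libraries 25, 27 and 29, while knockout libraries 31, 32 and 40 had 122.6, 122.5 and 111.3 CPM (1.36 ± 0.27, 0.0306). Rgs10 and Rgs14, which speed the shut-off of G protein alpha subunits, rose by 1.03 and 0.59 (adjusted p = 0.0172 and 0.0236). Grk3 and Rgs14 passed in 2 and Rgs10 in 3 of the 6 fits that left out a library.

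**Figure D4:**
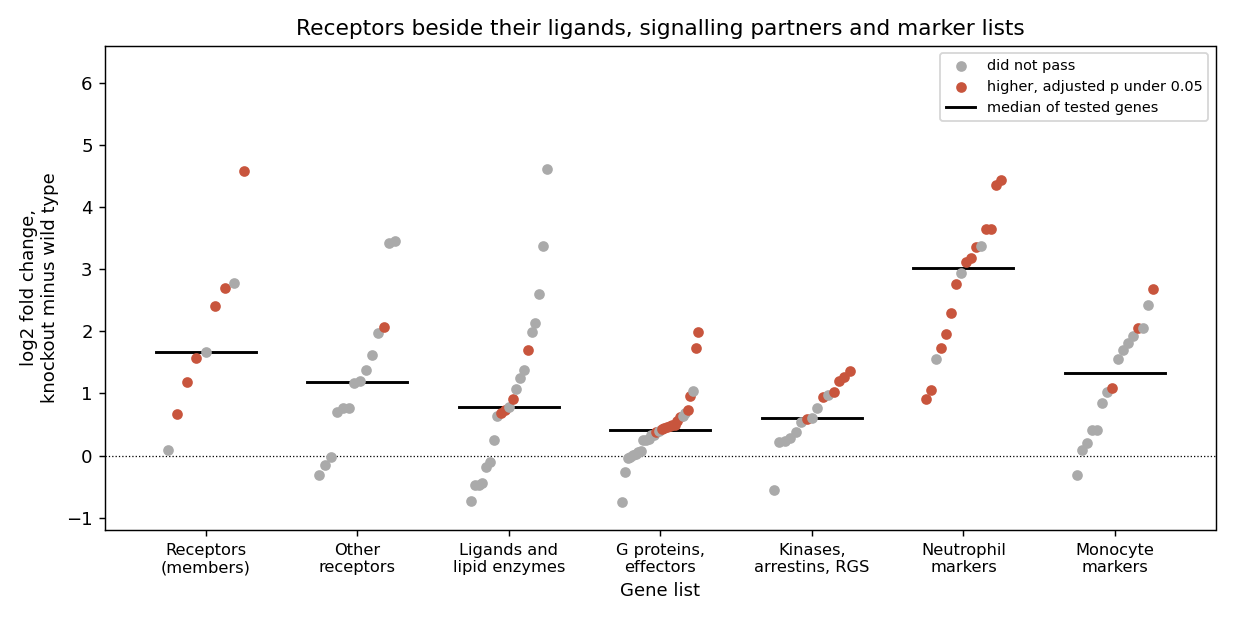
Log2 fold changes (knockout minus wild type) of every tested gene in 7 lists, with 1 point per gene, red where the adjusted p was under 0.05, and a black line at each list's median. Medians run from 0.42 (G proteins and effectors) to 3.03 (neutrophil markers), with 1.66 for the receptors.

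By profile over the 6 libraries, the protein-coding genes most like each receptor were named from 11548 candidates by Pearson's r of log2 CPM (0.984 to 0.9998 for the nearest genes), as a description without a test, and the 6 libraries fall into 2 groups that all these genes share. Csta2, a stefin gene, was among the 3 nearest to Fpr1. Osgin1 was nearest to Fpr2, Kidins220 to Cxcr2, Aspscr1 to Cxcr4, Cpne3 to C5ar1, Msrb1 to Ltb4r1, Gtpbp2 to Ptafr and Klhl25 to Ccr1, and Ap1m1 was nearest to Fpr1. The nearest gene to C3ar1 was Osm, the cytokine oncostatin M, with mean levels of 24.3 CPM in wild type against 91.8 CPM in knockout, which did not pass the test.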

How the data were processed

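RNA was extracted with TRIzol and sequenced by a company, per the labels' protocols. The authors deposited raw counts, as whole numbers, for every gene in 6 libraries. Per the submitters' processing notes, Salmon, limma, GRCm38 and mm10 were involved, without roles. Strand use and read filters, not given in the sources used here, are unknown. Each edgeR p-value sets the group difference against the variation between libraries of a group, estimated with information shared over all genes tested. This table also gives a gene length in bases, used only for levels per kilobase.

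Genes were kept by filterByExpr (minimum count 10, minimum total 15), scaled with TMM factors and tested by the robust quasi-likelihood method of edgeR 4.0.16 in R 4.3.3, with Benjamini-Hochberg adjustment over all 15963 genes and a threshold of 0.05. SEs were derived from the F statistic and 95% intervals from a t quantile. Log2 CPM used a prior of 2 counts and ratios 0.5. The floor is 3 counts. Libraries of a group differed beyond sampling noise. Alternatives included DESeq2 1.42.0 and limma 3.58.1 (voom).

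The members and lists were chosen with earlier results of these data known. Named were the 10 members, of each other list up to 4 called genes with the smallest p, and the 3 genes nearest in profile; 1 gene the rule names is not reported here. Ltb4r2, Gng12, Fpr3, Ngp, Ly6g, the genes at 0 counts and the proportions to neutrophil markers were singled out after values were seen. So were the T and NK cell markers other than Cd3d and Cd8a. Promoters matched by symbol for 10 of 10 members.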

Additional observations from a re-analysis of the deposited data

How the results depend on the processing

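Of the 10 receptor genes, 6 were called higher, and this number was 2 to 6 when 1 library was left out, lowest without knockout library 31 (Fpr1 and Ltb4r1). It was 3 without wild-type library 25 (Fpr1, Fpr2 and Ltb4r1) and 3 without wild-type library 29 (Fpr1, Cxcr4 and Ltb4r1). It was also 3 without wild-type libraries 27 and 29 together (Fpr2, Cxcr4 and Ltb4r1), where the lone wild-type library is taken to have the spread of the knockout group. It was 4 without a low-count filter and 6 or 7 under the other settings that kept all libraries, and 0 members were called lower under any setting. All genes called numbered 1368, 2607 with DESeq2, 453 without libraries 27 and 29, and 347 to 1227 with 1 library left out, the lowest without knockout library 40. Fewer libraries were fitted in the latter cases, and for DESeq2 the cause was not tested. With total counts alone 597 genes were higher and 682 lower (46.7% higher), against 870 and 498 (63.6%). Log2 fold changes reversed in sign for Ccr1 with total counts (-0.0404) and without libraries 27 and 29 (-0.165), and for Cd79b in the latter fit (0.664). With 1 library left out, they ran from -0.0401 (without wild-type library 29) to 0.234 for Ccr1, from -1.11 to 0.385 (without wild-type library 29) for Cd79b, and from -0.186 (without knockout library 31) to 2.21 for Cxcl12. The ratio differences kept their sign under a prior of 2 counts and with 1 library left out. No paired analysis was possible because the groups share no replicate numbers. Wild-type counts were low for Cxcr1, C3ar1 and Fpr1.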

Other observations

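Several genes of the same pathway that did not pass the test were high in knockout library 40 above all. Cxcl2, a ligand of CXCR2, was at 2.15, 2.01 and 7.99 CPM in wild-type libraries 25, 27 and 29, at 27.3 and 15.7 CPM in knockout libraries 31 and 32, and at 256.5 CPM in knockout library 40 (edgeR adjusted p = 0.0973). Ccrl2, which presents the chemoattractant chemerin without signalling itself, had 5.32, 5.31 and 50.7 CPM in the knockout libraries (31, 32, 40), against 1.03 to 2.40 CPM in wild type (adjusted p = 0.114). Of the 9 tested receptors, 7 had their highest knockout value in library 40, the exceptions being Cxcr2 (library 31) and Cxcr4 (library 32). How often library 40 was highest over all genes was not counted, so nothing particular to the receptors is read from this.

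Ccl9, a CC chemokine of myeloid cells that CCR1 reads, went the other way, with 255.4, 230.9 and 221.0 CPM in wild-type libraries 25, 27 and 29 and 112.7, 121.3 and 192.5 CPM in knockout libraries 31, 32 and 40. The groups did not overlap, and the gene did not pass (log2 fold change -0.73 ± 0.20 SE, edgeR adjusted p = 0.0648). The choice of these 3 genes was made with their values in view.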
